A study of Homo sapiens with 24 samples.

Results

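Hypoxia and the aryl hydrocarbon receptor (AHR) agonist ITE were compared with each other as single stimuli in RCC4+VHL cells, to find the genes whose mRNA separates activation of the hypoxia-inducible factors (HIF) from activation of AHR. The comparison takes 12 of the 24 RNA-seq libraries of the study, 6 labelled hypoxia + DMSO and 6 labelled normoxia + ITE. Genes entered when at least 6 of these 12 libraries held 10 or more counts, which left 11430 of the 23106 gene symbols in the files. RCC4 is a clear cell renal carcinoma line that is deficient in von Hippel-Lindau (VHL) function and carries a coding mutation of the gene. RCC4+VHL is a line derived from it in which wild-type VHL was put back by stable transfection, so that HIF-α is again broken down in oxygen. All cells were kept in medium free of phenol red with charcoal-stripped serum, which removes many small hydrophobic ligands. The hypoxia + DMSO cells were held at 0.5% oxygen for 6 h with 0.1% DMSO, the vehicle. The normoxia + ITE cells received 100 nM ITE, an indole-based AHR ligand, for 6 h at 21% oxygen. The groups thus differ in oxygen and in ligand at once, and a gene can be higher in one of them because it rose there or because it fell in the other. The remaining libraries, 6 in normoxia + DMSO and 6 in hypoxia + ITE, are used only to show where the level without either stimulus and the level with both stimuli lay.

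HIF and AHR are transcription factors of the bHLH-PAS family. In oxygen, HIF-α is hydroxylated by the prolyl hydroxylases of the EGLN family and degraded through VHL, and in hypoxia it escapes this, enters the nucleus and switches on genes of glycolysis, angiogenesis and mitophagy. AHR waits in the cytoplasm with chaperones until it binds a ligand, after which it activates genes of xenobiotic metabolism such as the CYP1 family. Both factors must pair with the same partner, HIF-1β/ARNT, to bind DNA. HIF dimers recognise a core of ACGTG and AHR dimers a core of GCGTG.

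The hypoxia + DMSO libraries held between 770094 and 37995687 counts (median 5928721) and the normoxia + ITE libraries between 5099464 and 48357647 (median 7471072.5). A floor of 3 counts, below which a level is not told from absence, corresponds to 0.0790 to 3.90 CPM (counts scaled to library size) in the first group and 0.0620 to 0.588 CPM in the second, and covers counting error only. Hypoxia + DMSO replicate 2 was the shallowest of the 12. Hypoxia + DMSO replicates 1 and 2 stood apart from their group, with median absolute deviations of 0.347 and 0.287 on the log2 scale against 0.0951 to 0.134 in the other 4. In replicate 1, 23.1% of the variance of the deviations went with GC content and transcript length of the genes. The biological coefficient of variation was 21.4% in hypoxia + DMSO and 12.3% in normoxia + ITE. Libraries within a group are described by the study as independent replicates. Of 10 renal and carcinoma markers, KRT8, KRT18, VIM, CDH2, NNMT, PAX2 and PAX8 were among the tested genes. CA9 and LRP2, the latter a receptor of the proximal tubule, had 0 counts in all 12 libraries, and CUBN, its partner, had 1 count in all hypoxia + DMSO libraries together and 10 in all normoxia + ITE libraries. Endothelial, leukocyte, fibroblast and hepatocyte markers were at or near 0, with at most 15.4 CPM summed over a list in any library, which came from CD68, the other leukocyte markers being at 0. The library kit keeps strand, but whether the counting used it is not given in the sources used here, and 37 of the 83 genes named by the rule have exons that overlap a gene on the other strand, CYP1B1, ALDH1A3, BMF, FSD2 and HAS3 among them, so that reads of such overlapping genes cannot be told apart.

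The difference between the stimuli was carried by 358 genes (3.13% of the genes tested) at a Benjamini-Hochberg adjusted p under 0.05 in edgeR's quasi-likelihood test. Of these, 250 genes were higher in hypoxia + DMSO (2.19% of all tested) and 108 were higher in normoxia + ITE (0.945%). The hypoxia side also had the larger differences, with 86 genes changed at least 2-fold against 18 on the ITE side, and a median log2 fold change of 0.74 against -0.55. Fold changes are given throughout as log2 of hypoxia + DMSO over normoxia + ITE with the standard error of the fit, so positive values are higher in hypoxia. Among the called genes, the 6 libraries of one group lay wholly above the 6 of the other for 169 on the hypoxia side and 80 on the ITE side, where over all tested genes such separation was seen for 2.01% and 1.35%. Without hypoxia + DMSO replicate 1 the counts were 368 and 204, holding 243 of the 250 and 107 of the 108 genes. The number on the ITE side thus depends strongly on this library, and it depends on the method as well. The genes higher in hypoxia had a median GC content of 51.1% against 47.4% over all genes tested and 47.3% for those higher in ITE, and with offsets for GC content and length the counts were 303 and 123. The plot of fold change against adjusted p shows both sides.

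**Figure D1:**
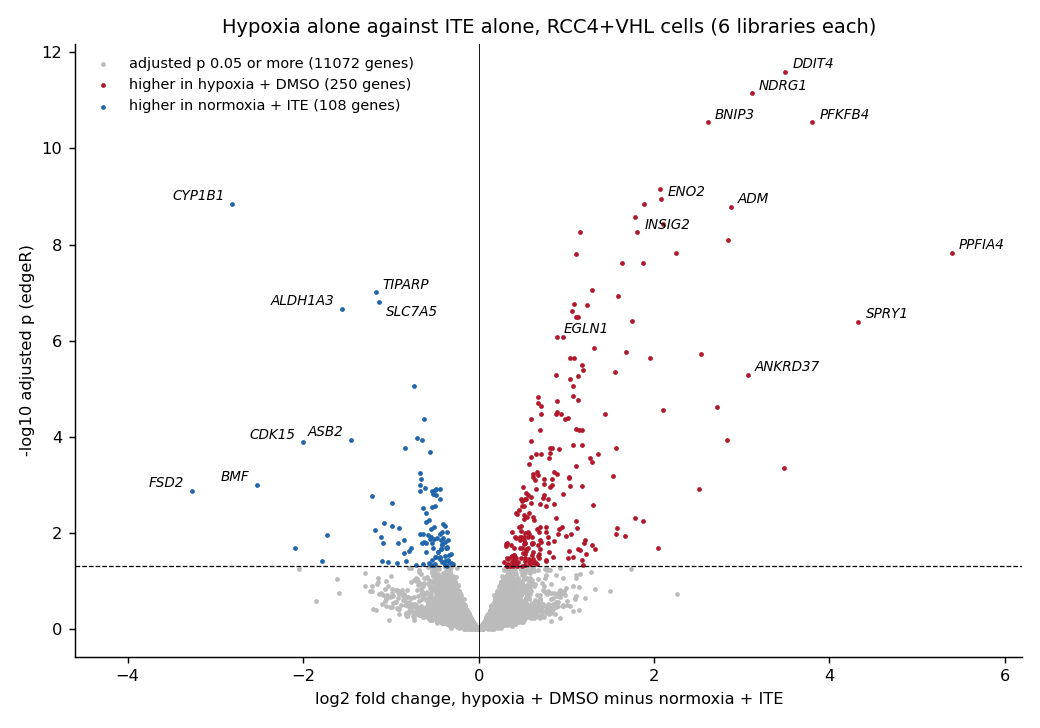
Each point is 1 of 11430 genes, with the log2 fold change of hypoxia + DMSO over normoxia + ITE on the x axis and -log10 of the edgeR adjusted p on the y axis, and the dashed line marks an adjusted p of 0.05. The 250 genes higher in hypoxia + DMSO reach a log2 fold change of 5.39 (PPFIA4) and the 108 higher in normoxia + ITE reach -3.27 (FSD2), with CYP1B1 standing alone at the top of the ITE side.

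The smallest p-values on the hypoxia side belonged to DDIT4, NDRG1, PFKFB4 and BNIP3. DDIT4, a brake on mTORC1 signalling (chr10:74033678-74035794, plus strand, in GRCh37), ranged from 323 to 414 CPM (median 374) in hypoxia + DMSO and from 27.1 to 42.2 CPM (median 29.6) in normoxia + ITE (log2 fold change 3.50 ± 0.13, adjusted p = 2.55e-12). NDRG1, a stress-responsive gene long used as a readout of HIF, ranged from 231 to 375 CPM (median 334) in hypoxia + DMSO and from 31.7 to 40.9 CPM (median 36.8) in normoxia + ITE (log2 fold change 3.11 ± 0.12, adjusted p = 7.19e-12). In neither gene did any normoxia + ITE library come near the hypoxia libraries. PFKFB4, an enzyme that sets the level of the activator of phosphofructokinase (chr3:48555117-48599448, minus strand), ranged from 44.1 to 62.7 CPM (median 53.9) in hypoxia + DMSO and from 1.91 to 4.96 CPM (median 4.03) in normoxia + ITE (log2 fold change 3.81 ± 0.17, adjusted p = 2.88e-11). BNIP3, a receptor that marks mitochondria for autophagy (chr10:133781188-133795471, minus strand), ranged from 448 to 539.6 CPM (median 465) in hypoxia + DMSO and from 50.3 to 88.5 CPM (median 81.8) in normoxia + ITE (log2 fold change 2.61 ± 0.12, adjusted p = 2.88e-11). The groups did not overlap in either of these 2 genes. ADM, the vasodilator peptide adrenomedullin, was 7.33-fold higher in hypoxia, ranging from 81.2 to 156 CPM (median 125) in hypoxia + DMSO and from 9.53 to 23.1 CPM (median 15.9) in normoxia + ITE (log2 fold change 2.87 ± 0.17, adjusted p = 1.64e-09). RAB20, a small GTPase of endosomes, was 7.16-fold higher (log2 fold change 2.84 ± 0.19, adjusted p = 7.99e-09).

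The largest ratios of all belonged to genes that were barely expressed under ITE. PPFIA4, a scaffold protein of the liprin family, ranged from 4.56 to 15.3 CPM (median 12.3) in hypoxia + DMSO and from 0.0954 to 0.572 CPM (median 0.260) in normoxia + ITE, a 42.0-fold difference (log2 fold change 5.39 ± 0.37, adjusted p = 1.49e-08). SPRY1, a feedback inhibitor of receptor tyrosine kinase signalling, ranged from 4.13 to 7.39 CPM (median 4.60) in hypoxia + DMSO and from 0 to 0.369 CPM (median 0.281) in normoxia + ITE (log2 fold change 4.33 ± 0.38, adjusted p = 4.01e-07). For both genes the normoxia + ITE levels lie near the limit set by 3 counts, so the size of the ratio is loose while the separation of the groups is complete. The lowest SPRY1 value in hypoxia + DMSO, 4.13 CPM, came from replicate 2, where 3 counts equal 3.90 CPM. ANKRD37, an ankyrin repeat protein, ranged from 5.38 to 9.64 CPM (median 8.01) in hypoxia + DMSO and from 0.276 to 1.59 CPM (median 0.689) in normoxia + ITE (log2 fold change 3.07 ± 0.33, adjusted p = 5.09e-06), and its exons overlap those of UFSP2 on the other strand. RIMKLA, a ligase that makes a dipeptide of N-acetylaspartate and glutamate, had a fold change of 7.11 (log2 fold change 2.83 ± 0.39, adjusted p = 0.000118), MIR210HG, the host transcript of a hypoxia-responsive microRNA, one of 5.80 (log2 fold change 2.54 ± 0.25, adjusted p = 1.88e-06), and PPP1R3C, which brings protein phosphatase to glycogen, one of 6.56 (log2 fold change 2.71 ± 0.32, adjusted p = 2.41e-05). All 12 of these genes with the largest differences were higher in hypoxia + DMSO in 6 of 6 same-numbered library pairs, as the rule by which they were picked requires.

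On the ITE side the leading gene was CYP1B1, a cytochrome P450 that oxidises polycyclic compounds and steroids and a textbook AHR target (chr2:38294116-38337044, minus strand). It ranged from 31.7 to 68.9 CPM (median 43.4) in hypoxia + DMSO and from 242 to 389.9 CPM (median 321) in normoxia + ITE (log2 fold change -2.81 ± 0.16, adjusted p = 1.44e-09). ALDH1A3, which makes retinoic acid from retinaldehyde, ranged from 8.91 to 11.2 CPM (median 10.6) in hypoxia + DMSO and from 23.8 to 32.4 CPM (median 31.4) in normoxia + ITE (log2 fold change -1.56 ± 0.13, adjusted p = 2.2e-07). TIPARP, a mono-ADP-ribosyltransferase that is itself an AHR target and feeds back on the receptor (chr3:156391024-156424559, plus strand), ranged from 44.1 to 66.1 CPM (median 53.8) in hypoxia + DMSO and from 110.2 to 129 CPM (median 124) in normoxia + ITE (log2 fold change -1.17 ± 0.09, adjusted p = 9.88e-08). SLC7A5, the catalytic chain of a large neutral amino acid transporter, ranged from 470.3 to 673 CPM (median 607) in hypoxia + DMSO and from 1222 to 1502 CPM (median 1265) in normoxia + ITE (log2 fold change -1.14 ± 0.09, adjusted p = 1.57e-07). In all 4 genes the lowest normoxia + ITE library was above the highest hypoxia + DMSO library. CYP1A1 and CYP1A2, the other classical AHR-driven cytochromes, were not expressed at a level that could be tested: CYP1A1 had 1 count in all hypoxia + DMSO libraries together and 1 in all normoxia + ITE libraries, and CYP1A2 had 0.

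Promoters of 3 genes per side are shown, those with the smallest p among the genes with the largest differences that have a window in the table used, to place the core motifs of the factors beside these values. Each window is 300 bases from RefSeq (GRCh38.p14), 250 before to 50 after the annotated start, written 5′ to 3′ along the gene. Capitals mark ACGTG, the HIF core, and GCGTG, the AHR core, together with their reverse complements CACGT and CACGC. A palindromic CACGTG counts as 2 matches of ACGTG, 1 on each strand. TIPARP has 3 windows in the table, of which the first is shown. The hypoxia-side windows are DDIT4 (chr10:72273674-72273973, plus strand), BNIP3 (chr10:131981874-131982173, minus strand) and PFKFB4 (chr3:48556754-48557053, minus strand), and the ITE-side windows are TIPARP (chr3:156674340-156674639, plus strand), SLC7A5 (chr16:87869458-87869757, minus strand) and ALDH1A3 (chr15:100879581-100879880, plus strand).
DDIT4: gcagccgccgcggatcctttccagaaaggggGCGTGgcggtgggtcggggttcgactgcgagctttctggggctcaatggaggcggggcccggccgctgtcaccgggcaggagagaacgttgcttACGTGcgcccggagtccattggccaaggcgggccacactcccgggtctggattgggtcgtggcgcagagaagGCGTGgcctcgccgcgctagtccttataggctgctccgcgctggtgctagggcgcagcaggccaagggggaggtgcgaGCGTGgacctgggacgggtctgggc
BNIP3: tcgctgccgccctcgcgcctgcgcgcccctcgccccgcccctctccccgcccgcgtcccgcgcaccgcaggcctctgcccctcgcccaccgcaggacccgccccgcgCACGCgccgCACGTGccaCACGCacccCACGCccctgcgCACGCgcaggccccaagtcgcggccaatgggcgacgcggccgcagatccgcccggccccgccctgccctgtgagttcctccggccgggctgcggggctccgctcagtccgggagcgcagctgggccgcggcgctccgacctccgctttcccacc
PFKFB4: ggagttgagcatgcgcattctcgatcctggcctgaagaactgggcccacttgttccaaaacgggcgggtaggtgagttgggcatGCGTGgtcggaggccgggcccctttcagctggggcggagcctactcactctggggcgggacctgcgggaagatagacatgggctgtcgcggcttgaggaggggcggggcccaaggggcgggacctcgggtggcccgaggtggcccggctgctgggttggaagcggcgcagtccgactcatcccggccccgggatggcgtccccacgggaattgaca
TIPARP: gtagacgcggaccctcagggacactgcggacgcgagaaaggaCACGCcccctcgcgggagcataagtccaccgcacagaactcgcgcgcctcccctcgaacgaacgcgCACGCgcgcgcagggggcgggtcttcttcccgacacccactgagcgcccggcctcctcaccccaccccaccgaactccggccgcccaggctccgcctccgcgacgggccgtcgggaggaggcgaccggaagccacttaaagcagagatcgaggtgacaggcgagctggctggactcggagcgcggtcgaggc
SLC7A5: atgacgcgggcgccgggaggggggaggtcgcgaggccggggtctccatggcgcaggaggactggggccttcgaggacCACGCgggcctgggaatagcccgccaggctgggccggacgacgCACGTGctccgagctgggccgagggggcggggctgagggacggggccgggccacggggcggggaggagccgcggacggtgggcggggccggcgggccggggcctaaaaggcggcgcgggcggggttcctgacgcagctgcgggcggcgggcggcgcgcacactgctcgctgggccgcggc
ALDH1A3: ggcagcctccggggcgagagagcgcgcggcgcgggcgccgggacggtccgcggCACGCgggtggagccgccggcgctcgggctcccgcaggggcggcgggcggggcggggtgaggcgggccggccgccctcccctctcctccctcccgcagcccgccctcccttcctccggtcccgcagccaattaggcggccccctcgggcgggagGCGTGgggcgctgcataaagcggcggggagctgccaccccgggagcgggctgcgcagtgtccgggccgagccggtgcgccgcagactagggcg
The DDIT4 window holds 1 match of ACGTG and 3 of GCGTG, the BNIP3 window 2 and 4, and the PFKFB4 window 0 and 1. TIPARP holds 0 and 2, SLC7A5 holds 2 and 1, and ALDH1A3 holds 0 and 2. NDRG1 and CYP1B1, among the genes of smallest p on their sides, have no window in the table used and are not shown.

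Both cores were counted in the promoter windows of the called genes and of all tested genes, as a description. Windows were matched by symbol for 197 of the 250 genes higher in hypoxia + DMSO (78.8%), 91 of the 108 higher in normoxia + ITE (84.3%) and 9312 of all 11430 tested genes (81.5%). Because fewer than 80% of the hypoxia set had a window, the comparison is void for that set as a whole, and the shares describe its matched genes only. At least 1 window with ACGTG on either strand was present for 110 of the 197 genes (55.8%) on the hypoxia side, 26 of the 91 (28.6%) on the ITE side and 33% of the tested genes. For GCGTG the shares were 56.9%, 63.7% and 59.3%. Taking every window in the table, 21.4% of 35116 held ACGTG and 36.5% held GCGTG. A match is a string of letters and not a bound site.

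Genes of glucose uptake and glycolysis were the list with the most members called on the hypoxia side. Of 21 tested members, 17 were higher in hypoxia + DMSO, a call made for 2.19% of all tested genes, with a median log2 fold change of 0.68 against 0.01 over all genes tested. ENO2, the neuronal form of enolase, ranged from 64.3 to 106 CPM (median 96.0) in hypoxia + DMSO and from 18.7 to 24.2 CPM (median 22.0) in normoxia + ITE (log2 fold change 2.08 ± 0.12, adjusted p = 1.15e-09). PGK1, phosphoglycerate kinase, ranged from 1172 to 1430.1 CPM (median 1318) in hypoxia + DMSO and from 563 to 622 CPM (median 592) in normoxia + ITE (log2 fold change 1.15 ± 0.07, adjusted p = 5.53e-09). LDHA, which turns pyruvate into lactate, ranged from 4181 to 4777 CPM (median 4345) in hypoxia + DMSO and from 1821 to 2237 CPM (median 2048) in normoxia + ITE (log2 fold change 1.11 ± 0.08, adjusted p = 1.55e-08). None of these 3 genes showed overlap between the groups, and the lowest hypoxia library stood far above the highest ITE library. The 4 members that did not pass were the phosphofructokinases PFKL (0.20), PFKP (0.18) and PFKM (-0.06) and pyruvate kinase, PKM (0.30), named here after their values were seen. PGK1, LDHA and other glycolytic genes have processed pseudogenes of near-identical sequence, and reads shared with them may be missing from these counts, since the deposited counts come from uniquely mapped reads.

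Of 12 tested genes of glycogen metabolism, 4 (33.3% against 2.19% of all tested genes) were higher in hypoxia + DMSO, namely PPP1R3C, the branching enzyme GBE1 (log2 fold change 1.08 ± 0.12, adjusted p = 8.91e-06), the glycogen-binding protein STBD1 (log2 fold change 0.94 ± 0.12, adjusted p = 3.39e-05) and the phosphoglucomutase PGM1 (log2 fold change 0.51 ± 0.09, adjusted p = 0.00112). GBE1 ranged from 56.9 to 100.1 CPM (median 92.0) in hypoxia + DMSO and from 37 to 46.3 CPM (median 41.6) in normoxia + ITE. Its lowest hypoxia value came from replicate 1 and still exceeded every ITE library. PPP1R3C ranged from 10.9 to 17.7 CPM (median 14.2) in hypoxia + DMSO and from 0.410 to 4.18 CPM (median 1.79) in normoxia + ITE. The exporter of lactate, SLC16A3, was the single member called of 8 in the group of carbonic anhydrases and pH regulators (12.5% against 2.19% of all tested genes). It ranged from 189 to 290.5 CPM (median 259.6) in hypoxia + DMSO and from 143 to 172 CPM (median 161) in normoxia + ITE (log2 fold change 0.65 ± 0.09, adjusted p = 0.00023).

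Among 12 tested angiogenic and secreted factors, 6 were higher in hypoxia + DMSO, against 2.19% of all tested genes, and all 12 had a positive log2 fold change, between 0.04 and 3.48. VEGFA, the main endothelial growth factor, ranged from 50.2 to 68.6 CPM (median 58.1) in hypoxia + DMSO and from 25.8 to 33.3 CPM (median 29.0) in normoxia + ITE (log2 fold change 1.04 ± 0.11, adjusted p = 6.21e-06). ANGPTL4, a secreted inhibitor of lipoprotein lipase, ranged from 0 to 12.7 CPM (median 5.78) in hypoxia + DMSO and from 0 to 1.60 CPM (median 0.570) in normoxia + ITE (log2 fold change 3.48 ± 0.53, adjusted p = 0.000455). VEGFA separated the groups fully, whereas ANGPTL4 was at 0 in 1 library of each group and overlapped. Its 0 in hypoxia + DMSO came from replicate 2, the shallowest library, where 3 counts equal 3.90 CPM. LOX, which cross-links collagen, ranged from 42.4 to 52.1 CPM (median 44.7) in hypoxia + DMSO and from 15.4 to 35.1 CPM (median 19.96) in normoxia + ITE (log2 fold change 1.03 ± 0.17, adjusted p = 0.000706). Of 11 collagen hydroxylases and lysyl oxidases, 4 (36.4%) were higher in hypoxia, LOX among them. P4HA1, a catalytic chain of collagen prolyl hydroxylase, ranged from 161 to 228 CPM (median 217) in hypoxia + DMSO and from 71.9 to 95.3 CPM (median 88.8) in normoxia + ITE (log2 fold change 1.3 ± 0.10, adjusted p = 8.99e-08). PLOD2, a lysyl hydroxylase, ranged from 442 to 647 CPM (median 548) in hypoxia + DMSO and from 238 to 284 CPM (median 272) in normoxia + ITE (log2 fold change 1.07 ± 0.09, adjusted p = 2.45e-07). P4HA1 and PLOD2 did not overlap between groups, while P4HA2 (log2 fold change 0.52 ± 0.11, adjusted p = 0.0125) did.

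**Figure D2:**
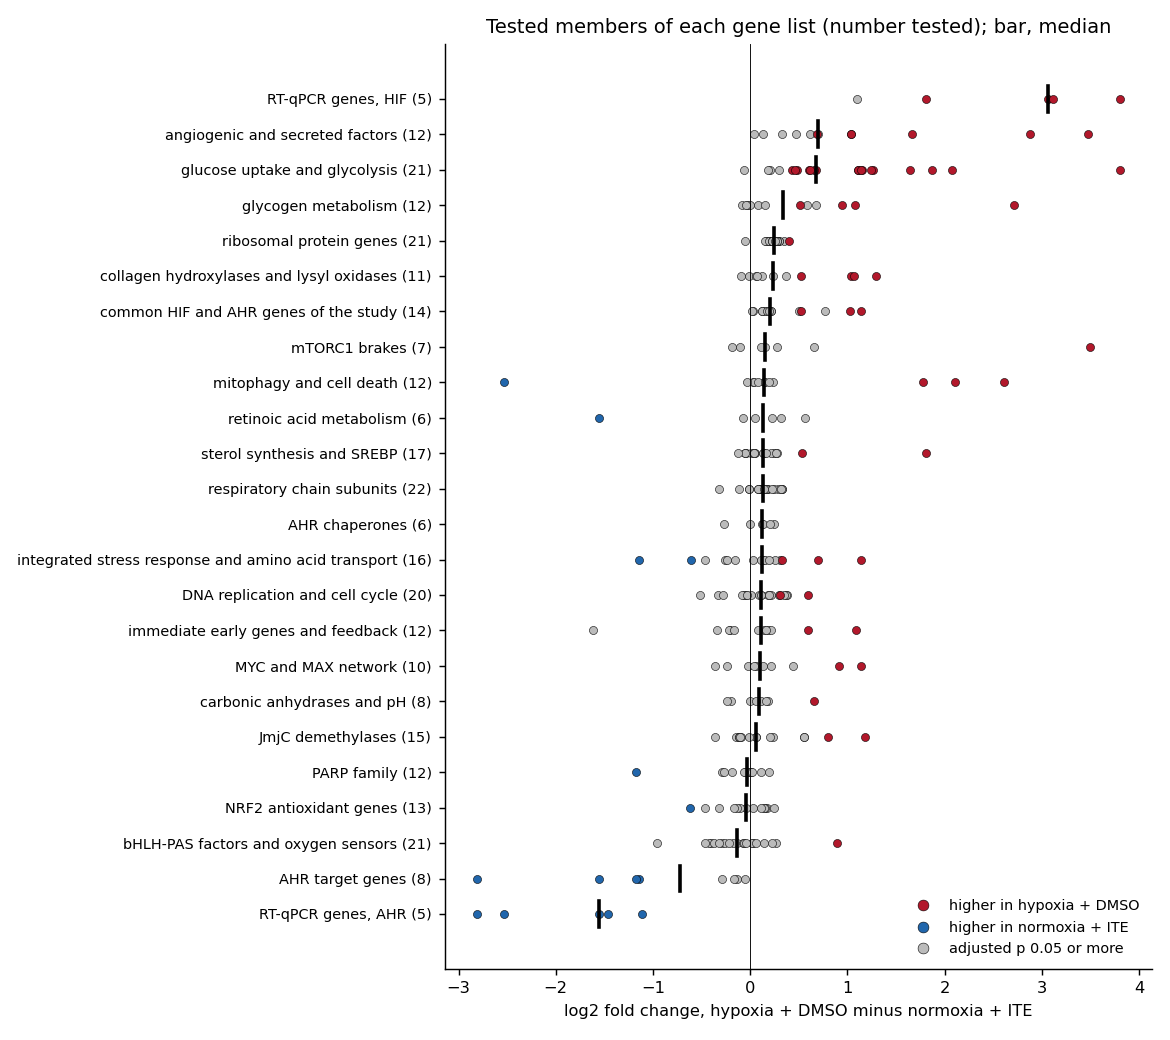
Each point is a tested member of a gene list at its log2 fold change of hypoxia + DMSO over normoxia + ITE (x axis), coloured by whether and in which direction it passed an adjusted p of 0.05, with the list's median as a black bar and the number tested in brackets. Glycolysis stands to the right with 17 of 21 members called, and the RT-qPCR genes of AHR stand to the left with 5 of 5.

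Of 12 tested genes of mitophagy and cell death, 3 were higher in hypoxia + DMSO (25% against 2.19% of all tested genes), 1 was higher in normoxia + ITE (8.33% against 0.945%) and 8 did not pass. BNIP3L, a mitophagy receptor related to BNIP3, ranged from 201 to 287 CPM (median 260.0) in hypoxia + DMSO and from 64.1 to 87.7 CPM (median 71.4) in normoxia + ITE (log2 fold change 1.78 ± 0.11, adjusted p = 2.65e-09). FAM162A, a mitochondrial protein, ranged from 50.6 to 70.2 CPM (median 55.9) in hypoxia + DMSO and from 9.37 to 15.1 CPM (median 14.1) in normoxia + ITE (log2 fold change 2.10 ± 0.13, adjusted p = 3.7e-09). BMF, a pro-apoptotic member of the BCL2 family, went the other way and ranged from 0 to 1.55 CPM (median 0.908) in hypoxia + DMSO and from 2.05 to 8.20 CPM (median 6.31) in normoxia + ITE (log2 fold change -2.53 ± 0.42, adjusted p = 0.00102). All 3 genes separated the groups, although BMF was low throughout and was at 0 in hypoxia + DMSO replicate 2, the shallowest library.

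In the lists of regulators, 1 or 2 members passed, each higher in hypoxia + DMSO, a call made for 2.19% of all tested genes. Of 15 JmjC demethylases, enzymes that need oxygen, 2 (13.3%) were higher in hypoxia, KDM3A (log2 fold change 1.18 ± 0.15, adjusted p = 7.28e-05) and KDM4B (log2 fold change 0.80 ± 0.14, adjusted p = 0.00195). KDM3A ranged from 50.0 to 96.4 CPM (median 82.8) in hypoxia + DMSO and from 28.7 to 40.2 CPM (median 35.2) in normoxia + ITE. In the MYC and MAX network, 2 of 10 members (20%) were higher in hypoxia, both of them antagonists of MYC: MXI1 (log2 fold change 1.14 ± 0.12, adjusted p = 5.35e-06) and MNT (log2 fold change 0.91 ± 0.19, adjusted p = 0.00825). MXI1 ranged from 43.2 to 63.8 CPM (median 54.9) in hypoxia + DMSO and from 20.4 to 31.2 CPM (median 24.1) in normoxia + ITE. DDIT4 was the only one of 7 mTORC1 brakes past the threshold (14.3%). Among 17 sterol genes, 2 (11.8%) passed. INSIG2, which holds the SREBP machinery in the endoplasmic reticulum, ranged from 64.6 to 92.2 CPM (median 77.8) in hypoxia + DMSO and from 18.9 to 28.5 CPM (median 20.4) in normoxia + ITE (log2 fold change 1.81 ± 0.12, adjusted p = 5.53e-09), and SCD, a fatty acid desaturase, was the other member called (log2 fold change 0.53 ± 0.11, adjusted p = 0.0102). INSIG2 separated the groups by a wide margin and SCD overlapped. Of 12 immediate early genes and feedback regulators, 2 (16.7%) passed: the phosphatase gene DUSP1 was higher in hypoxia, ranging from 217 to 293 CPM (median 251) in hypoxia + DMSO and from 94.8 to 149 CPM (median 116) in normoxia + ITE (log2 fold change 1.09 ± 0.11, adjusted p = 2.34e-06), as was JUNB (log2 fold change 0.59 ± 0.15, adjusted p = 0.0402). The JUNB call was lost, at adjusted p between 0.0540 and 0.107, when any of hypoxia + DMSO replicates 2, 3, 4 and 5 or normoxia + ITE replicates 1, 2, 3, 4 and 6 was left out.

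Called amino acid transporter genes lay on both sides. In the group of the integrated stress response and amino acid transport, 16 genes were tested, 3 were higher in hypoxia + DMSO (18.8% against 2.19% of all tested genes) and 2 were higher in normoxia + ITE (12.5% against 0.945%). SLC7A5 and SLC3A2 encode the 2 chains of 1 heterodimeric transporter, and both were on the ITE side. SLC3A2 ranged from 300.3 to 437 CPM (median 359) in hypoxia + DMSO and from 491 to 633 CPM (median 538) in normoxia + ITE (log2 fold change -0.61 ± 0.10, adjusted p = 0.00118). TRIB3, a pseudokinase induced by ATF4, ranged from 212 to 268 CPM (median 236) in hypoxia + DMSO and from 77.6 to 152 CPM (median 108) in normoxia + ITE (log2 fold change 1.14 ± 0.13, adjusted p = 1.76e-05), and SLC38A2, a sodium-coupled neutral amino acid transporter, ranged from 232 to 368 CPM (median 279) in hypoxia + DMSO and from 138 to 211 CPM (median 177) in normoxia + ITE (log2 fold change 0.70 ± 0.13, adjusted p = 0.0025), both on the hypoxia side. Each of these 3 genes kept the groups apart. ATF4 itself was the third member higher in hypoxia (log2 fold change 0.33 ± 0.08, adjusted p = 0.0329), named after its value was seen.

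Other large differences on the ITE side fell outside the classical AHR targets. FSD2, a protein with fibronectin and SPRY domains, had the largest of them (log2 fold change -3.27 ± 0.56, adjusted p = 0.00132) and ranged from 0 to 0.758 CPM (median 0) in hypoxia + DMSO and from 1.10 to 2.80 CPM (median 2.27) in normoxia + ITE. CDK15, a cyclin-dependent kinase, ranged from 1.23 to 4.48 CPM (median 2.63) in hypoxia + DMSO and from 8.72 to 17.4 CPM (median 11.9) in normoxia + ITE (log2 fold change -2.01 ± 0.28, adjusted p = 0.000131). HAS3, a hyaluronan synthase, ranged from 4.13 to 14.4 CPM (median 11.2) in hypoxia + DMSO and from 17.3 to 30.5 CPM (median 25.6) in normoxia + ITE (log2 fold change -1.21 ± 0.21, adjusted p = 0.00174). These 3 genes separated the groups, FSD2 at levels close to the limit of 3 counts and with exons that overlap SNHG21 on the other strand. In hypoxia + DMSO replicate 2 that limit is 3.90 CPM, above every FSD2 level, so its 0 there does not bear on the separation. MTSS1, an actin-binding scaffold of the plasma membrane, overlapped between the groups (log2 fold change -1.72 ± 0.37, adjusted p = 0.0108). RAD54L2, a helicase that binds the androgen receptor, overlapped as well (log2 fold change -1.10 ± 0.28, adjusted p = 0.0387), and its call was lost, at adjusted p between 0.0528 and 0.0991, when any of hypoxia + DMSO replicates 3 and 5 or normoxia + ITE replicates 1, 2, 3, 5 and 6 was left out. Of 13 NRF2 antioxidant genes, 1 passed (7.69%, against 0.945% of all tested genes higher in normoxia + ITE), the thioredoxin reductase TXNRD1, which was higher in normoxia + ITE, ranging from 348 to 398 CPM (median 385) in hypoxia + DMSO and from 525 to 658 CPM (median 589) in normoxia + ITE (log2 fold change -0.62 ± 0.08, adjusted p = 4.32e-05). Of 8 tested AHR target genes, 4 passed (50% against 0.945% of all tested genes higher in normoxia + ITE), CYP1B1, ALDH1A3, TIPARP and SLC7A5. The other 4 were NQO1 (-0.16), NFE2L2 (-0.14), UGT1A6 (-0.05) and the AHR repressor AHRR (-0.29), named after their values were seen.

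The genes that the study followed by RT-qPCR as readouts of each factor mostly divided by stimulus in the sequencing. The study measured these genes in the same cell line, and whether these libraries entered their choice is not given in the sources used here, so their direction is not read as independent evidence. All 5 AHR readouts, CYP1B1, ALDH1A3, BMF, ASB2 and CYP27A1, were higher in normoxia + ITE (100% against 0.945% of all tested genes). ASB2, a substrate adaptor of a ubiquitin ligase, ranged from 4.55 to 8.19 CPM (median 5.52) in hypoxia + DMSO and from 11.9 to 23.0 CPM (median 17.7) in normoxia + ITE (log2 fold change -1.46 ± 0.20, adjusted p = 0.000115). CYP27A1, a mitochondrial sterol hydroxylase, ranged from 4.73 to 16.5 CPM (median 8.97) in hypoxia + DMSO and from 14.2 to 22.2 CPM (median 21.0) in normoxia + ITE (log2 fold change -1.12 ± 0.24, adjusted p = 0.0123). The groups were apart for ASB2 and overlapped for CYP27A1. Of the 5 HIF readouts, NDRG1, PFKFB4, INSIG2 and ANKRD37 were higher in hypoxia + DMSO (80% against 2.19% of all tested genes). ARL10, a small GTPase of the ARF family, ranged from 0.217 to 6.57 CPM (median 4.43) in hypoxia + DMSO and from 1.24 to 3.62 CPM (median 1.61) in normoxia + ITE and did not pass (log2 fold change 1.09 ± 0.45, adjusted p = 0.242). Without hypoxia + DMSO replicate 1, which held the lowest ARL10 level, ARL10 passed at a log2 fold change of 1.34 and an adjusted p of 0.0172.

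At the mRNA level, few differences between the stimuli by number passed the test among the factors themselves. Of 21 tested bHLH-PAS factors, coactivators and oxygen sensors, EGLN1 alone passed the threshold. It was higher in hypoxia + DMSO (4.76% of the list against 2.19% of all tested genes). EGLN1, the main prolyl hydroxylase of HIF-α (chr1:231499497-231558033, minus strand), ranged from 209 to 270.5 CPM (median 242) in hypoxia + DMSO and from 118 to 140.3 CPM (median 130.1) in normoxia + ITE (log2 fold change 0.89 ± 0.08, adjusted p = 8.26e-07). Every hypoxia + DMSO library was above every normoxia + ITE library. HIF1A ranged from 195 to 246 CPM (median 236) in hypoxia + DMSO and from 228 to 279 CPM (median 259) in normoxia + ITE (log2 fold change -0.18 ± 0.09, adjusted p = 0.344), and EPAS1, which encodes HIF-2α, ranged from 91.9 to 154 CPM (median 137) in hypoxia + DMSO and from 109.9 to 149 CPM (median 130.5) in normoxia + ITE (log2 fold change 0.06 ± 0.11, adjusted p = 0.859). AHR ranged from 34.5 to 46.8 CPM (median 39.7) in hypoxia + DMSO and from 29.5 to 38.8 CPM (median 36.5) in normoxia + ITE (log2 fold change 0.14 ± 0.10, adjusted p = 0.539), and ARNT, the shared partner, ranged from 18.5 to 38.5 CPM (median 33.1) in hypoxia + DMSO and from 28.2 to 39.7 CPM (median 35.5) in normoxia + ITE (log2 fold change -0.13 ± 0.15, adjusted p = 0.718). In these 4 genes the groups overlapped. VHL, whose reads include any from the transfected copy, ranged from 146 to 231 CPM (median 172) in hypoxia + DMSO and from 166 to 203 CPM (median 183) in normoxia + ITE (log2 fold change -0.05 ± 0.10, adjusted p = 0.882). CLOCK had the smallest p of the members that did not pass (log2 fold change -0.41 ± 0.12, adjusted p = 0.0681), ARNT2 had the largest estimate (log2 fold change -0.96 ± 0.41, adjusted p = 0.276), and the remaining ones lay between -0.47 and 0.26. EGLN3 had 1 count in each group, so the other classical hypoxia-induced prolyl hydroxylase could not be measured. The 6 AHR chaperones lay between -0.27 and 0.24, and 0 of them passed in edgeR, with 2 at an unadjusted p under 0.05, 1 past the threshold in DESeq2 and 1 in limma voom with sample quality weights.

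**Figure D3:**
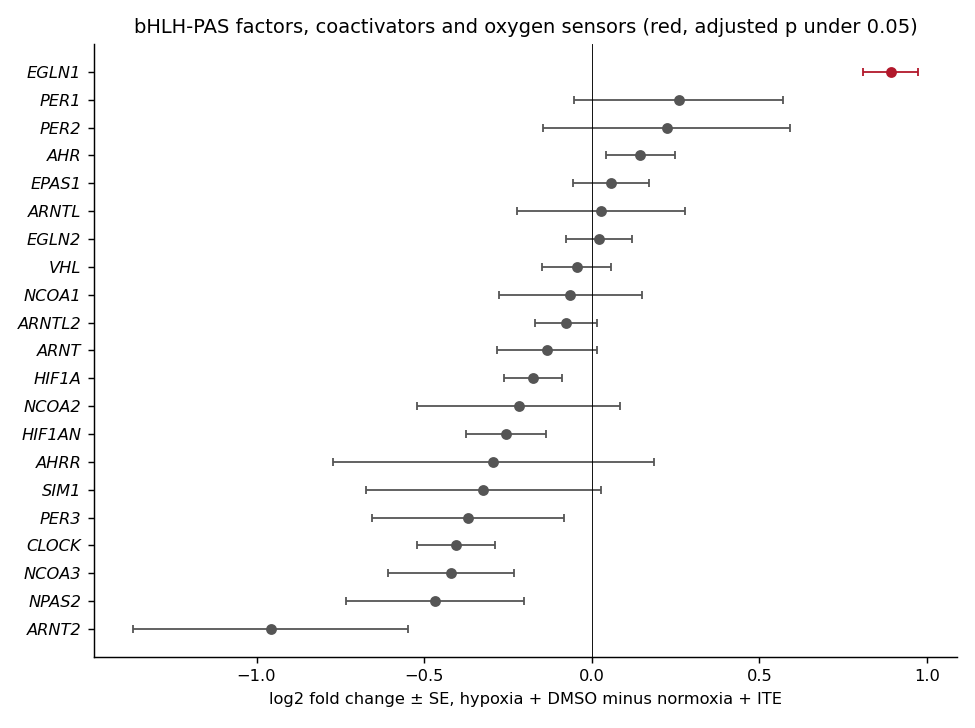
Points give the log2 fold change of hypoxia + DMSO over normoxia + ITE and bars its standard error for the 21 tested bHLH-PAS factors, coactivators and oxygen sensors. EGLN1 at 0.89 is the one gene past an adjusted p of 0.05, and AHR, ARNT, HIF1A and EPAS1 lie between -0.18 and 0.14.

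Of 14 genes that the study lists as common to both factors, 3 passed, all higher in hypoxia + DMSO (21.4% against 2.19% of all tested genes). All 14 had a positive log2 fold change, between 0.02 and 1.14, as had 51.8% of all tested genes. The glucose transporter gene SLC2A1 ranged from 299 to 471 CPM (median 401) in hypoxia + DMSO and from 154 to 195 CPM (median 183) in normoxia + ITE (log2 fold change 1.14 ± 0.10, adjusted p = 3.3e-07). WSB1, a substrate receptor of a ubiquitin ligase, ranged from 82.6 to 127 CPM (median 94.5) in hypoxia + DMSO and from 63.9 to 74.8 CPM (median 70.1) in normoxia + ITE (log2 fold change 0.52 ± 0.10, adjusted p = 0.00509). PAG1, a membrane adaptor of Src family kinases, ranged from 4.13 to 6.52 CPM (median 5.40) in hypoxia + DMSO and from 1.52 to 3.81 CPM (median 2.59) in normoxia + ITE (log2 fold change 1.02 ± 0.26, adjusted p = 0.0329). The groups were apart in all 3 genes. The lowest PAG1 value in hypoxia + DMSO, 4.13 CPM, came from replicate 2, where 3 counts equal 3.90 CPM, so its separation is loose. The PAG1 call was lost, at adjusted p between 0.0543 and 0.0918, when any of hypoxia + DMSO replicates 3, 4 and 6 or normoxia + ITE replicates 1, 3, 4 and 5 was left out. The study chose this list on these same libraries, so its direction is not independent evidence.

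The reference libraries show on which side of the contrast a gene had moved. These comparisons share the normoxia + DMSO libraries, and their values are set side by side without relating them to each other. They also reuse the hypoxia + DMSO and normoxia + ITE libraries on which the called genes were picked. Counts and medians among the called genes are therefore raised in advance. Set beside the share over all tested genes, they describe the genes and are not independent evidence. For 242 of the 250 genes higher in hypoxia + DMSO, the mean log2 level in normoxia + DMSO lay nearer to normoxia + ITE than to hypoxia + DMSO. In a fit over all 24 libraries, 128 of the 250 were also higher in hypoxia + DMSO than in normoxia + DMSO, a call made for 1.18% of all tested genes. Over the 250, the median log2 fold change against normoxia + DMSO was 0.68 for hypoxia and -0.06 for ITE. DDIT4 averaged 32.5 ± 5.73 CPM (SD, n = 6) in normoxia + DMSO, with a log2 fold change of 3.52 ± 0.17 for hypoxia (adjusted p = 8.04e-15) and of 0.02 ± 0.15 for ITE (adjusted p = 1). SLC2A1 averaged 144 ± 16.8 CPM in normoxia + DMSO, with a hypoxia effect of 1.47 ± 0.12 (adjusted p = 8.88e-10) and an ITE effect of 0.34 ± 0.12 (adjusted p = 1). The normoxia + DMSO level of DDIT4 thus matched that under ITE, while that of SLC2A1 lay below both groups.

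The genes higher in normoxia + ITE had a more mixed origin. Normoxia + DMSO lay nearer to normoxia + ITE for 72 of the 108 and nearer to hypoxia + DMSO for 36. Against normoxia + DMSO, 10 of the 108 were lower in hypoxia (0.175% of all tested genes), 7 were higher with ITE (0.0612% of all tested genes) and 91 passed neither test. Here too the tests reuse the libraries on which the genes were picked, so the counts that passed are not independent evidence. These tests use the fit over all 24 libraries, which also called fewer genes in the direct comparison. Passing neither test therefore does not show a lack of change. CYP1B1 averaged 56.9 ± 7.73 CPM (SD, n = 6) in normoxia + DMSO, with an ITE effect of 2.5 ± 0.20 (adjusted p = 5.87e-09) and a hypoxia effect of -0.30 ± 0.19 (adjusted p = 0.674). SLC7A5 and TIPARP were also higher with ITE, with ITE effects of 1.20 ± 0.11 (adjusted p = 2.24e-07) and 1.34 ± 0.17 (adjusted p = 4.94e-05). Their hypoxia effects were 0.06 ± 0.11 and 0.17 ± 0.17. HAS3 had its normoxia + DMSO mean of 19.1 ± 2.10 CPM nearer to the ITE group, with a hypoxia effect of -0.85 ± 0.22 (adjusted p = 0.0428) and an ITE effect of 0.38 ± 0.20 (adjusted p = 1). Against normoxia + DMSO, CYP1B1, SLC7A5 and TIPARP thus rose with ITE, and HAS3 fell in hypoxia.

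With both stimuli together, most of the separating genes stayed nearer to hypoxia alone. The mean in hypoxia + ITE lay nearer to hypoxia + DMSO for 204 of the 250 genes higher in hypoxia and for 70 of the 108 higher in normoxia + ITE. BNIP3 averaged 412 ± 62.0 CPM and PFKFB4 45.8 ± 11.9 CPM in hypoxia + ITE (SD, n = 6), both close to hypoxia + DMSO. CYP1B1, at 236 ± 72.5 CPM, and SLC7A5, at 1093 ± 158 CPM, lay nearer to normoxia + ITE. The hypoxia + ITE group holds a library that stands apart, with a median absolute deviation of 0.668 on the log2 scale.

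**Figure D4:**
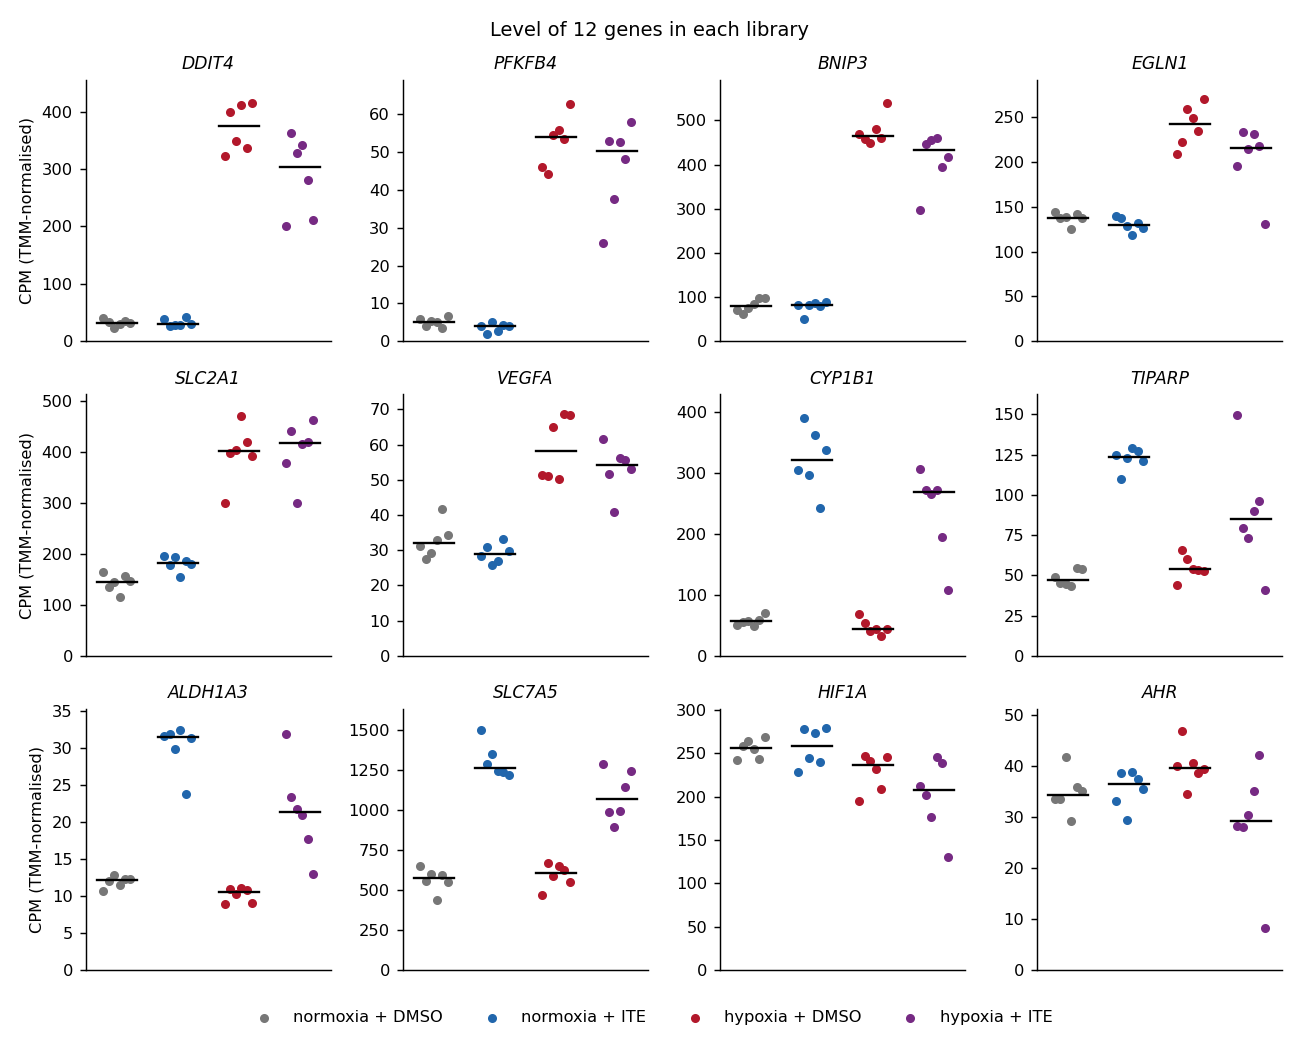
Each point is the TMM-normalised CPM of 1 library (y axis, from 0) in the 4 groups, 6 libraries per group, with the group median as a bar, for 12 genes. By group median, DDIT4, PFKFB4, BNIP3, EGLN1, SLC2A1 and VEGFA are high in both hypoxic groups, and CYP1B1, TIPARP, ALDH1A3 and SLC7A5 are high with ITE in normoxia. In hypoxia + ITE, 1 library of EGLN1 (131 CPM) and 1 of VEGFA (40.8 CPM) lie within the normoxia + DMSO range. With both stimuli CYP1B1, TIPARP and ALDH1A3 spread widely, each lowest in hypoxia + ITE replicate 6. CYP1B1, ALDH1A3 and SLC7A5 still lie above every hypoxia + DMSO library, and so does TIPARP except in that replicate (41.1 CPM). HIF1A and AHR overlap between hypoxia + DMSO and normoxia + ITE.

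Several lists held few or no separating genes by number, though their share could exceed that over all genes tested. Of 22 respiratory chain subunits, 0 passed in edgeR, DESeq2 or limma voom and 2 had an unadjusted p under 0.05, with log2 fold changes between -0.32 and 0.32, the smallest p belonging to NDUFS1 (log2 fold change -0.32 ± 0.12, adjusted p = 0.214) and NDUFA2 (log2 fold change 0.32 ± 0.13, adjusted p = 0.238). The median log2 fold change of ribosomal protein genes was 0.24, and 95.2% of them were positive, against 51.8% of all tested genes. Of these 21 genes, 1 passed (4.76% against 2.19% of all tested genes), RPS9 (log2 fold change 0.40 ± 0.10, adjusted p = 0.0294). The RPS9 call was lost, at adjusted p between 0.0507 and 0.0785, when any of hypoxia + DMSO replicates 2 and 5 or normoxia + ITE replicates 1 to 6 was left out. Among 20 genes of DNA replication and the cell cycle, 2 were higher in hypoxia (10% against 2.19% of all tested genes). They were CDT1 (log2 fold change 0.60 ± 0.08, adjusted p = 0.000123) and MCM4 (log2 fold change 0.31 ± 0.07, adjusted p = 0.017), both of which act in licensing of replication origins. The MCM4 call was lost without normoxia + ITE replicate 3 (adjusted p = 0.0560). Of 12 members of the PARP family and 6 tested genes of retinoic acid metabolism, TIPARP and ALDH1A3 alone passed, both higher in normoxia + ITE. These are shares of 8.33% and 16.7%, against 0.945% of all tested genes.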

How the data were processed

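PolyA+ RNA from RCC4+VHL cells was sequenced in 24 libraries, 6 in each of 4 groups, of which the 6 hypoxia + DMSO and 6 normoxia + ITE libraries were compared. The authors deposited raw counts per gene symbol, 1 value per gene and library, after trimming, alignment to GRCh37 with HISAT2, removal of duplicates and non-unique reads and counting with HTSeq. These counts are not normalised. Groups and replicate numbers were taken from the sample labels.

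Counts were analysed in R 4.3.3 with edgeR 4.0.16 (TMM normalisation, quasi-likelihood F-test, 1 mean per group, two-sided) over the 11430 genes with 10 or more counts in at least 6 of the 12 libraries, with a threshold of 0.05 after Benjamini-Hochberg adjustment. CPM levels use TMM library sizes over all 24 libraries, and log2 CPM a prior count of 2. DESeq2 1.42.0 and limma 3.58.1 served as alternatives, with other size factors, filters, a minimum fold change, a replicate block, offsets for GC content and transcript length (91% of tested genes matched) and each library left out. The scripts were tested on simulated data. The standard error is the absolute log2 fold change divided by the square root of the F statistic.

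Total counts ranged from 770094 to 48357647 per library in the 12, and p-values measure the spread between these replicates. The correlation of the deviations of same-numbered libraries was above 0.1 in 2 of 6 pairs (median 0.068) and not in every pair, so the numbers were not used as pairs in the test.

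Genes named are up to 12 per direction with the largest difference among those past the threshold (mean of at least 1 CPM, same direction in 6 of 6 same-numbered pairs), the RT-qPCR genes of the study, up to 4 called members of smallest p per list (2 where no member was called), and all tested bHLH-PAS factors, coactivators and oxygen sensors. The comparison, its lists and these genes were chosen with earlier results of these data known. Gene positions are from GENCODE lifted to GRCh37 and promoter windows from RefSeq on GRCh38.p14, matched by symbol. ChIP-seq data were not used here.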

Additional observations from a re-analysis of the deposited data

Results flagged for a closer look

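Within the groups of 6, the gap between an extreme library and its nearest neighbour, divided by the group's range, exceeded Dixon's critical value (95%) in 20 of 174 sets of values examined, where chance alone would give about 8.7. Hypoxia + DMSO replicate 5 was the deepest of its group with 37995687 counts, and normoxia + ITE replicate 5 stood apart with 48357647 counts and 14633 genes detected.

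Hypoxia + DMSO replicate 1 was the lowest of its group for EPAS1 (91.9 CPM), GBE1 (56.9 CPM), SCD (501 CPM) and PER2 (0.435 CPM) and the highest for NDUFA2 (156 CPM). Hypoxia + DMSO replicate 2, the shallowest library, was highest for RIMKLA (9.64 CPM) and NCOA1 (34.4 CPM) and lowest for NPAS2 (0 CPM). In the same group BNIP3 was highest in replicate 6 (539.6 CPM), FSD2 highest in replicate 4 (0.758 CPM) and P4HA1 lowest in replicate 5 (161 CPM).

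In normoxia + ITE, BNIP3 was lowest in replicate 2 (50.3 CPM), ALDH1A3 and CYP27A1 were lowest in replicate 5 (23.8 and 14.2 CPM), INSIG2 was highest in replicate 3 (28.5 CPM), PER2 highest in replicate 6 (4.48 CPM) and NCOA1 highest in replicate 1 (22.0 CPM). None of these values turned the direction of a called gene when its library was left out.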

How the results depend on the processing

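Of the 58 named genes past the threshold, 39 kept their call in each of 25 other settings that tested them. Another 19 lost it under at least 1 setting, and 0 changed sign. Not every setting tested every gene: a filter of 10 or more counts in all 12 libraries kept 57 of the 83 named genes. The number of genes higher in hypoxia + DMSO, 250, became 161 with all 24 libraries in the model, 469 with limma voom and sample quality weights (which gave hypoxia + DMSO replicate 1 a weight of 0.183), 71 with a minimum log2 fold change of 0.5, and 359 with DESeq2. The number higher in normoxia + ITE, 108, became 55, 275, 9 and 201 in the same order. With each library left out in turn the counts ranged from 185 to 368 and from 72 to 204, both highest without hypoxia + DMSO replicate 1. The following were added after seeing the data. Without hypoxia + DMSO replicates 1 and 2 the counts were 382 and 238, with GC content and length offsets 303 and 123, and with these offsets and the replicate block 376 and 149. Over the gene lists, 53 members were higher in hypoxia + DMSO and 9 in normoxia + ITE. Without hypoxia + DMSO replicate 1 these were 67 and 16, and without both libraries 69 and 16.

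With the replicate number as a block the counts were 240 and 106, of which 210 and 81 were shared with the fit without it, and 54 and 11 list members passed. By list, angiogenic and secreted factors called went from 6 to 10, NRF2 antioxidant genes higher in normoxia + ITE from 1 to 3, stress response and amino acid transport genes from 3 and 2 to 2 and 3, and common genes of the study from 3 to 2. The correlation of same-numbered deviations ranged from -0.048 to 0.432, and 2 of 6 hypoxia + DMSO and 4 of 6 normoxia + ITE libraries correlated best with their own number, a hint from the data and not the design. Among named genes PAG1, RAD54L2 and RPS9 lost their call with the block, at adjusted p of 0.0697, 0.0717 and 0.0810.

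Genes not past the threshold with estimates near 0 changed sign in some settings. EGLN2 (0.02) became -0.00196 with upper quartile size factors, -0.0203 with voom weights and -0.00778 without hypoxia + DMSO replicates 1 and 2. ARNTL (0.03) became -0.00708 with the replicate block and -0.00459 with the block and offsets. VHL (-0.05) became 0.0629 with offsets and 0.0396 with offsets and block, and NCOA1 (-0.06) became 0.0419 and 0.0381. With each library left out in turn, EGLN2 ranged from -0.0423 to 0.0547, ARNTL from -0.0548 to 0.199, NCOA1 from -0.206 to 0.0703 and VHL from -0.150 to 0.00324. Depth limits the genes near 3 counts, such as FSD2, BMF and SPRY1. The labels name no batch, so within-batch values were not computed.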

Other observations

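Some genes of mitosis were higher in normoxia + ITE than in hypoxia + DMSO, which was noticed after the called genes were seen. A general list of 54 genes of the G2/M phase, all tested, was then counted as a description, with no test of the list. Of these, 10 were higher in normoxia + ITE (18.5% against 0.945% of all tested genes) and 44 did not pass. A negative log2 fold change (hypoxia + DMSO over normoxia + ITE) was found in 49 of 54 (90.7% against 48.2% of all tested genes), and the median was -0.22 against 0.01 over all genes tested. CDC20, which activates the anaphase-promoting complex, ranged from 167 to 206 CPM (median 184) in hypoxia + DMSO and from 233 to 296 CPM (median 261) in normoxia + ITE (log2 fold change -0.50 ± 0.09, adjusted p = 0.00128 in edgeR). HMMR, a spindle protein, ranged from 65.5 to 81.7 CPM (median 67.6) in hypoxia + DMSO and from 91.5 to 105 CPM (median 98.4) in normoxia + ITE (log2 fold change -0.49 ± 0.08, adjusted p = 0.00123). HJURP, the chaperone that loads the centromeric histone, ranged from 44.1 to 62.1 CPM (median 59.2) in hypoxia + DMSO and from 73.3 to 87.0 CPM (median 83) in normoxia + ITE (log2 fold change -0.53 ± 0.10, adjusted p = 0.00286). In these 3 genes the groups did not overlap. The median over the 54 was -0.22 for hypoxia against normoxia + DMSO, with 4 members lower, and 0.02 for ITE against normoxia + DMSO. In a list of 43 genes of the S phase, 1 member, MCM4, was higher in hypoxia + DMSO (2.33%, near the 2.19% of all tested genes) and 42 did not pass. The values leaned toward hypoxia + DMSO, opposite to the G2/M list. Negative values numbered 7 (16.3% against 48.2% of all tested genes), and the median was 0.15 against 0.01 over all genes tested. The number of G2/M members called was 19 without hypoxia + DMSO replicate 1, 25 without replicates 1 and 2, 11 with GC content and length offsets and 7 with the replicate block. FAM83D, KIF14 and ASPM, mitotic genes outside that list, were among the called genes too (-0.56, -0.66 and -0.67). Cells were not counted by phase, so a shift of cells between phases was not tested.

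Outside all lists, 191 called genes were higher in hypoxia + DMSO and 84 in normoxia + ITE. Those with the smallest p, named after their values were seen, were on the hypoxia side ANKZF1, a factor of ribosome quality control, which ranged from 68.5 to 106 CPM (median 89.8) in hypoxia + DMSO and from 17.8 to 24 CPM (median 21.1) in normoxia + ITE (log2 fold change 2.06 ± 0.11, adjusted p = 6.96e-10), and PLIN2, a coat protein of lipid droplets, which ranged from 182 to 281 CPM (median 232) in hypoxia + DMSO and from 51.3 to 72.8 CPM (median 61.0) in normoxia + ITE (log2 fold change 1.88 ± 0.11, adjusted p = 1.44e-09). ARRDC3, an arrestin-like adaptor, and BHLHE40, a transcriptional repressor of the circadian clock, followed, at 4.77-fold and 3.002-fold. The groups were apart in all 4 genes. On the ITE side PISD, which makes phosphatidylethanolamine in mitochondria, ranged from 69.6 to 88.1 CPM (median 73.9) in hypoxia + DMSO and from 118 to 132 CPM (median 127) in normoxia + ITE (log2 fold change -0.74 ± 0.08, adjusted p = 8.91e-06), and SHISA2, a membrane protein that restrains WNT and FGF receptors, ranged from 186 to 278 CPM (median 250.1) in hypoxia + DMSO and from 339 to 444 CPM (median 402) in normoxia + ITE (log2 fold change -0.70 ± 0.09, adjusted p = 0.000104). SHISA2 averaged 234 ± 40.5 CPM in normoxia + DMSO, close to hypoxia + DMSO, with an ITE effect of 0.76 ± 0.14 (adjusted p = 0.0126), while PISD, at 94.9 ± 13.1 CPM, lay between the groups.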
